A study of Mus musculus with 16 samples.

Results

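miR-21a is represented by its arms miR-21a-5p and miR-21a-3p (mmu-miR-21a-5p and mmu-miR-21a-3p in the table), which are 2 of the 1167 mature miRNAs counted in a serum time course of mouse fibroblasts. They were picked by name, and all 26 end-class entries that carry either name were used, out of 6510 in the table (16 for miR-21a-5p and 10 for miR-21a-3p). The cells were 3T9 fibroblasts, an immortalised mouse embryo line described by the labels as fibroblasts and with no engineered allele named. All groups shared the same start, 72 h without serum, and differed only in the time spent in complete medium with 10% fetal bovine serum (FBS): 0 h (quiescent cells, none), 1, 2, 4, 6, 8, 10 or 12 h. Each of the 8 times had 2 libraries of small RNA, one from each of the independent experiments that the design text names, and each experiment was 1 sequencing run. The study followed how miRNA levels respond when quiescent fibroblasts receive serum again.

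The libraries held 5852087 to 7783249 miRNA reads. All 6 listed miRNAs of fibroblasts and other mesenchymal cells had counts, with summed levels of 264041 to 340284 CPM (counts after scaling all library totals to the same size). The blood list summed to 1.96 to 4.09 CPM (5 of 6 with counts), and liver miR-122-5p stood at 0 to 0.629 CPM. The epithelial list summed to 64.6 to 138 CPM (6 of 6 with counts) and the neural list to 178 to 359 CPM (2 of 3). The muscle list (3 of 3) summed to 0.979 to 2.67 CPM and the pluripotent list (3 of 5) to at most 0.678 CPM.

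A miRNA hairpin is cut by Drosha and then Dicer into a duplex, and one arm is usually kept in an Argonaute protein as the guide while the other, the passenger, is mostly discarded. The guide pairs with target mRNAs chiefly through its seed, bases 2 to 8. The cut sites vary by a base or so, and enzymes add bases to the 3' end or trim it, so each arm exists as a set of end forms. miR-21 is abundant in fibroblasts, its gene is known to respond to AP-1 and STAT3, and its guide arm miR-21a-5p represses the mRNA of the tumour suppressor Pdcd4.

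The RefSeq mature sequences of both arms are given because the end classes below are read against them. Which reference sequences the authors used to assign the classes is not given in the sources used here. Both names matched. The seed is in capitals, and the strands read 5' to 3'.
miR-21a-5p: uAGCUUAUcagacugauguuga
miR-21a-3p: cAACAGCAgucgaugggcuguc
Each is 22 bases long. miR-21a-5p lies at chr11:86584120-86584141 and miR-21a-3p at chr11:86584082-86584103, both on the minus strand of GRCm38.p6. The hairpin, chr11:86584067-86584158, lies inside an exon (chr11:86583865-86585451) of Vmp1, on the same strand, within the part annotated as untranslated (chr11:86583865-86585310). Vmp1 encodes a membrane protein of autophagy. The seed of miR-21a-5p is shared by 1 other RefSeq mouse miRNA, miR-21c, which is not among the 1167 mature miRNAs counted. That of miR-21a-3p is shared by none.

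The bases that follow each arm in the hairpin are taken to set what counts as a templated 3' extension. They are printed in capitals, 4 for each arm.
miR-21a-5p with the next bases: uagcuuaucagacugauguugaCUGU
miR-21a-3p with the next bases: caacagcagucgaugggcugucUGAC
The first base after miR-21a-5p is C and the first after miR-21a-3p is U. The table divides the reads of an arm into the reference form, trimmed reads, templated 3' extensions, 3' extensions that are not templated (A, U, C, G or mixed forms), and the same kinds of 5' extension. The class names are the source of these meanings. Nowhere in the table are given the bases of the C-form. A single added C would match the hairpin of miR-21a-5p, so whether that class holds a single C, several, or C at another position cannot be told from the table.

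miR-21a-5p was one of the 5 most abundant miRNAs in every library, with 347130 to 633952 reads, or 5.24% to 9.47% of a library. Because the arms were listed with knowledge of their totals, levels are described without a test. In replicate 1 miR-21a-5p stood at 57286 CPM at 0 h, 59614 at 1 h, 62022 at 2 h, 67208 at 4 h, 74677 at 6 h, 81179 at 8 h, 87364 at 10 h and 82680 at 12 h. In replicate 2 the values were 63725, 58455, 67590, 50522, 58361, 77439, 57169 and 99673 CPM at the same times. Replicate 1 was the higher at 1 h and from 4 h to 10 h, and replicate 2 at 0, 2 and 12 h. Only at 8 h and 12 h were both libraries above both 0 h libraries.

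The mean of miR-21a-5p was 60505 ± 4553 CPM (SD, n = 2) at 0 h and 91177 ± 12016 at 12 h, a fitted log2 difference of 0.59 (1.51-fold), beside a median of 0.00 over 449 miRNAs. In between, the means ran from a low of 58865 ± 11799 (4 h) to a high of 79309 ± 2644 (8 h). The spread was widest at 10 h, with 72267 ± 21351. The difference at 12 h was 0.16 when only reads of the reference form were counted. It was 0.43 on unscaled totals, and 0.74 without 12 h replicate 1.

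miR-21a-3p, the passenger arm, had 1042 to 3595 reads a library and ranked between 78 and 119 among the miRNAs. In replicate 1 it stood at 309.7 CPM at 0 h, 366.2 at 1 h, 234.7 at 2 h, 319 at 4 h, 515 at 6 h, 443 at 8 h, 232 at 10 h and 285 at 12 h. At the same times replicate 2 gave 298.2, 365.7, 386.1, 184, 192, 342, 158 and 340 CPM. Both libraries lay above the 0 h pair at 1 h and 8 h and below it at 10 h, and at 2, 4, 6 and 12 h the libraries fell on either side. The fitted log2 difference at 12 h was 0.04.

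**Figure D1:**
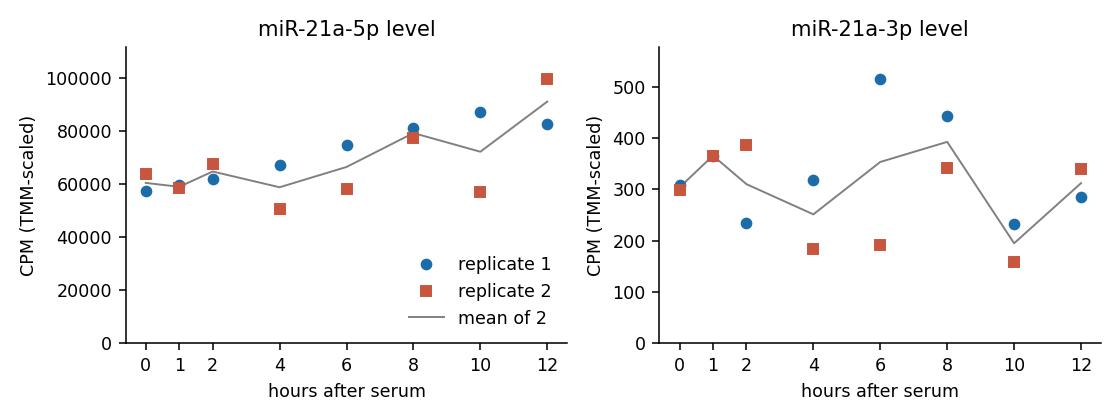
Level of miR-21a-5p (left) and miR-21a-3p (right) in CPM on TMM-scaled totals against hours after serum. Points are single libraries and the line joins the means of 2 libraries; miR-21a-5p ends at 82680 and 99673 CPM, above the 57286 and 63725 CPM of 0 h, and miR-21a-3p ends near its start.

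Set against each other, the passenger arm gave 5.02 ± 0.508 of every 1000 miR-21a reads at 0 h (SD, n = 2) and 6.16 ± 0.0799 at 1 h. It then gave 4.72 ± 1.35 at 2 h, 4.18 ± 0.779 at 4 h, 5.07 ± 2.53 at 6 h and 4.92 ± 0.730 at 8 h. Later values were 2.70 ± 0.0719 at 10 h and 3.42 ± 0.0213 at 12 h. All 4 libraries of 10 h and 12 h lay below both 0 h libraries (5.38 and 4.66), with 3.43 and 3.4 at 12 h. The 12 h minus 0 h difference was -1.60 per 1000, and 0.0540 when only reference-form reads of both arms were counted. The latter starts from a lower baseline. At 0 h the reference form held a mean of 8.69% of miR-21a-3p reads and 49.0% of miR-21a-5p reads. It rests on 167 and 217 reference-form reads of miR-21a-3p at 0 h, and 184 and 213 at 12 h.

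Within miR-21a-5p the forms with a longer 3' end took over from the reference form. Templated 3' extensions and the C-form gained share, and the reference and trimmed forms lost it. These shares are counted within the arm, so they do not depend on how many reads the arm has, but they do sum to the whole and so are not independent of each other. All 3'-extended reads together made up 39.7% ± 0.961 (SD, n = 2) of miR-21a-5p in quiescent cells, 50.6% ± 0.907 after 4 h and 57.2% ± 2.16 after 12 h of serum.

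Shares were tested with edgeR's quasi-likelihood F-test on 1350 end-class entries of all miRNAs, with Benjamini-Hochberg adjustment at 0.05. Of the 26 miR-21a entries, 14 passed the filter of a mean of 10 reads and are not a sum of other entries (10 of miR-21a-5p and 4 of miR-21a-3p). Over the whole course 6 of the 14 changed, against 8% of all entries tested. On a linear trend per hour 5 of the 14 were called, 3 higher and 2 lower, against 27.6% of all entries (15.8% higher and 11.8% lower). At 12 h against 0 h 4 of the 14 were called, 2 higher and 2 lower, against 12.3% of all entries (7.11% higher and 5.19% lower). With the experiment kept as a block the any-change test called 9 of the 14 (25% of all entries), the trend 8 (38.2%) and the 12 h comparison 7 (27.9%).

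Templated 3' extensions of miR-21a-5p rose at each step up to 4 h in both experiments. In replicate 1 they made up 35.3% of the arm's reads at 0 h, 37.2% at 1 h, 39.9% at 2 h, 42.7% at 4 h, 44.0% at 6 h, 46.5% at 8 h, 48.1% at 10 h and 47.0% at 12 h. In replicate 2 the shares were 36.4%, 36.9%, 39.1%, 42.8%, 45.8%, 45.4%, 46.4% and 47.8% at the same times. Every library after 0 h was above both 0 h libraries. The share rose by 0.0346 ± 0.00321 (SE) log2 units per hour (adjusted p = 9.35e-07, edgeR quasi-likelihood test) and by 0.40 ± 0.026 at 12 h (adjusted p = 1.03e-05). Of the 202 templated 3' entries tested, 21 had a steeper upward slope, and 24.8% were called in either direction.

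The reference form of miR-21a-5p, taken to be the 22-base sequence printed above, fell over the same hours. Its share in replicate 1 was 49.5% at 0 h, 48.5% at 1 h, 45.4% at 2 h, 41.5% at 4 h, 39.7% at 6 h, 37.4% at 8 h, 36.6% at 10 h and 37.0% at 12 h. In replicate 2 it was 48.5%, 47.6%, 43.8%, 40.3%, 35.5%, 36.5%, 35.1% and 34.2%. Both libraries of each later time were below both 0 h libraries, by a narrow margin at 1 h. The slope was -0.0411 ± 0.00412 log2 units per hour (adjusted p = 2.20e-06, edgeR quasi-likelihood test) and the 12 h difference -0.46 ± 0.052 (adjusted p = 0.000473). Of all reference-form entries tested, 31.3% had a called trend, 63 downward and 28 upward. The reference share of miR-27b-3p, another abundant miRNA, fell by a similar amount. Its slope was -0.0340 ± 0.00399 per hour (adjusted p = 9.21e-06, same test). Its 12 h difference was -0.44 ± 0.070 (adjusted p = 0.00359). Neither was called for the reference forms of miR-22-3p, miR-143-3p and miR-99b-5p. In miR-27b-3p the trimmed share rose and the templated 3' share fell, the opposite of miR-21a-5p. Those slopes were 0.0288 ± 0.00295 (adjusted p = 2.45e-06, edgeR quasi-likelihood test) and -0.0199 ± 0.00473 per hour (adjusted p = 0.00456, same test).

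Templated 3' extensions outnumbered the reference form from 4 h on. The ratio of the 2 classes was 0.731 ± 0.0260 (SD, n = 2) in quiescent cells, 1.04 ± 0.0250 after 4 h and 1.33 ± 0.0896 after 12 h. Trimmed reads, which end short of the reference, made up 11.2% and 10.7% of miR-21a-5p at 0 h and 8.15% and 8.01% at 4 h. By 12 h they were down to 6.89% and 6.50%. All libraries from 4 h on were below the 0 h pair, whereas those of 1 h and 2 h overlapped it. The trimmed share fell by 0.0648 ± 0.00639 log2 units per hour (adjusted p = 1.77e-06, edgeR quasi-likelihood test) and by 0.71 ± 0.086 at 12 h (adjusted p = 0.000763). A trend was called for 33.2% of all trimmed entries. Counted against reference-form reads in place of all reads of the arm, the 12 h fall of the trimmed form was 0.25 and missed the threshold (adjusted p = 0.129).

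**Figure D2:**
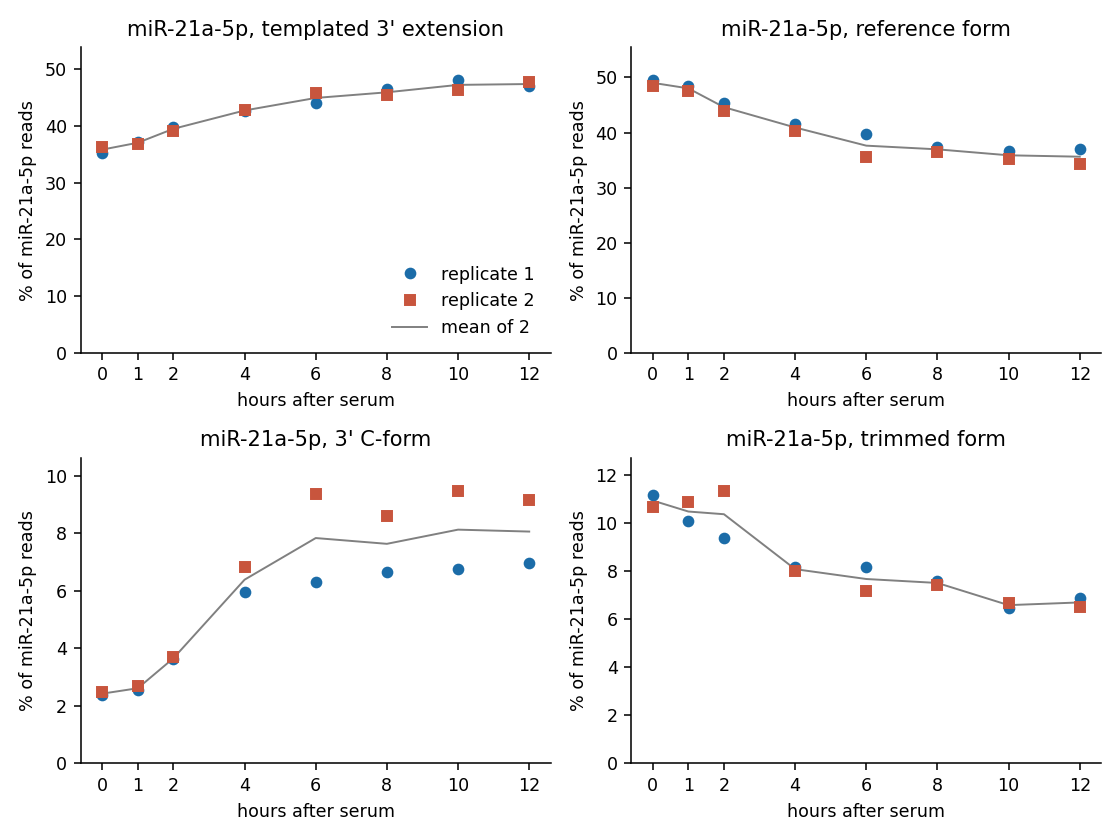
Share of miR-21a-5p reads (percent) in 4 end classes against hours after serum, with points for single libraries and a line through the means of 2 libraries. Templated 3' extensions climb from 35.3% and 36.4% to 47.0% and 47.8%, the reference and trimmed forms fall, and the C-form climbs from 2.37% and 2.48% to 6.96% and 9.17%.

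In percentage points the reference and templated 3' forms of miR-21a-5p moved more than its C-form. Their mean shares went from 49.0% to 35.6% and from 35.8% to 47.4% between 0 h and 12 h. On the log2 scale, that of relative change, the C-form had the largest fitted slope and 12 h difference among the tested miR-21a classes. Its share in replicate 1 was 2.37% at 0 h, 2.54% at 1 h, 3.63% at 2 h, 5.95% at 4 h, 6.31% at 6 h, 6.66% at 8 h, 6.77% at 10 h and 6.96% at 12 h. In replicate 2 it was 2.48%, 2.69%, 3.68%, 6.83%, 9.36%, 8.61%, 9.49% and 9.17%. The experiments lay close together up to 2 h and apart from 6 h on, and every later library was above both 0 h libraries. The 12 h share was 2.94 times the 0 h share in replicate 1 and 3.70 times in replicate 2.

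The fitted rise of the C-form share at 12 h was 1.73 ± 0.23 log2 units (3.33-fold, adjusted p = 0.000995, edgeR quasi-likelihood test), and the slope was 0.153 ± 0.0250 per hour (adjusted p = 0.000208). The adjusted p of the 12 h rise was 0.0580 when the fit held only the 0 h and 12 h libraries, and that of the fall of the reference form was then 0.0685. Of 66 C-form entries of all miRNAs, 8 had a called trend (12.1%), 7 of them upward, and the slope of miR-21a-5p was the highest of the 66. At 12 h 2 of the other entries had a larger rise. Among non-templated 3' extensions of miR-21a-5p, the C-form made up 64.2% and 62.4% at 0 h and 80.2% and 83.6% at 12 h.

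The C-form share of miR-21a-5p was high among abundant miRNAs, at a rank that depended on the experiment. Its mean was 5.15% in replicate 1, with a median of 0.0918% over the 124 miRNAs of at least 1000 mean reads, and 6.54% in replicate 2, with a median of 0.0277%. In replicate 1 the means of 2 of them were higher, those of miR-125b-5p (8.20%) and miR-28a-3p, and in replicate 2 none was. In single libraries of replicate 1, 11 of the 124 had a higher share at 0 h and 1 at 12 h, and miR-125b-5p was above miR-21a-5p in all 8. In replicate 2, miR-101a-3p was above it up to 2 h, and 0 of the 124 were from 4 h on. At 0 h the C-form share was 0.120% and 0.00217% for miR-22-3p, 1.63% and 0.0602% for miR-99b-5p, 0.0925% and 0.110% for miR-143-3p, and 0.184% and 0.177% for miR-27b-3p. At 12 h these shares were 0.133% and 0.00229%, 1.72% and 0.0693%, 0.0904% and 0.0990%, and 0.158% and 0.157%. The values of miR-22-3p and miR-99b-5p thus differed between the experiments far more than between the times.

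That difference between the experiments held for C-forms in general. C-forms of all other miRNAs together made up 0.549% to 0.706% of their reads in the 8 libraries of replicate 1 and 0.0911% to 0.109% in those of replicate 2, a ratio of 6.26. Within each experiment they also rose with time. They went from 0.570% at 0 h to 0.706% at 12 h in replicate 1, and from 0.0924% to 0.109% in replicate 2. The median 12 h difference of the 66 tested C-form entries was 0.25 log2 units. Over the 66 tested C-form entries the median ratio of replicate 1 to replicate 2 was 5.30, and 40 of them were over 2, with 84.3 for miR-22-3p, 60.8 for let-7i-5p and 8.71 for miR-125b-5p. The ratio was 0.787 for miR-21a-5p, 0.917 for miR-143-3p and 1.05 for miR-27b-3p. miR-21a-5p held 21% of all C-form reads at 0 h and 45.3% at 12 h in replicate 1, and 65.9% and 89.8% in replicate 2.

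The rise of the miR-21a-5p C-form was present in each run taken alone. Its slope was 0.131 per hour in the run of replicate 1 and 0.172 in that of replicate 2. Each of these fits held 8 libraries of 1 experiment, with 1 library per time, so only slopes are given. These fits within a run were added after the data had been seen. The templated, reference, trimmed and mixed classes of miR-21a-5p also kept the direction of their trends within each run. The run and the experiment cannot be told apart.

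**Figure D3:**
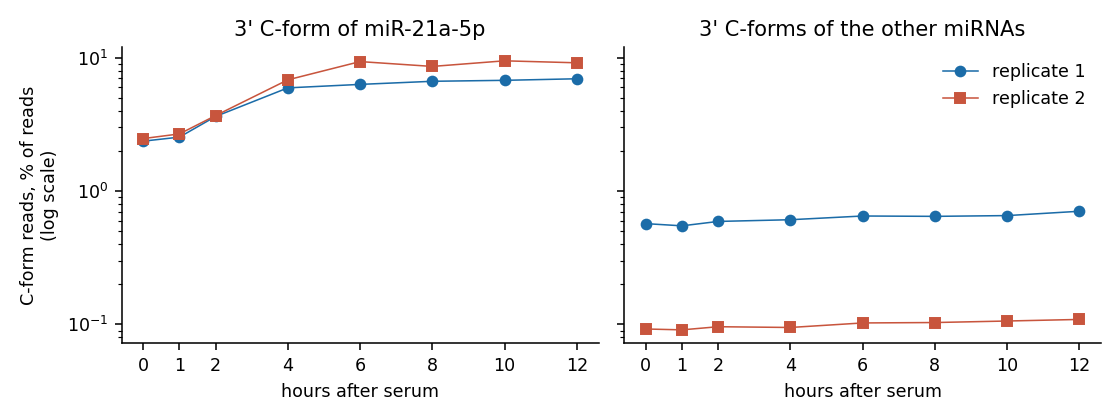
C-form reads in percent, on a log axis, against hours after serum, for miR-21a-5p (left, of miR-21a-5p reads) and for all other miRNAs together (right, of their reads). Lines join the libraries of 1 replicate; the replicates overlie each other for miR-21a-5p at early times but are separated by a ratio of 6.26 for the other miRNAs.

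On the CPM scale, which is relative to the library, most of the 12 h minus 0 h difference in miR-21a-5p lay in reads that were longer at the 3' end. Templated 3' extensions went from 21698 ± 2092 CPM (SD, n = 2) at 0 h to 43251 ± 6190 at 12 h, a 1.99-fold difference that made up 70.3% of the arm's 30672 CPM. The C-form went from 1469 ± 157 to 7447 ± 2394 CPM, 5.07-fold and 19.5% of the difference. The reference form stood at 29650 ± 1806 and 32351 ± 2468 CPM, 1.09-fold and 8.80% of the difference, with a low of 24140 ± 5346 CPM at 4 h. Trimmed reads were at 6607 ± 287 and 6087 ± 555 CPM.

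**Figure D4:**
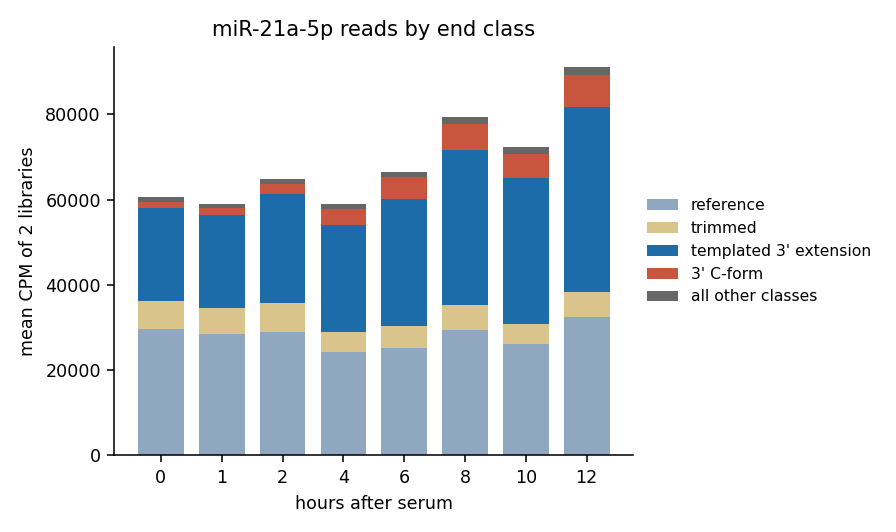
Mean level of miR-21a-5p over 2 libraries (CPM, bar height) against hours after serum, stacked by end class. The reference part goes from 29650 CPM at 0 h to 24140 at 4 h and 32351 at 12 h, while templated 3' extensions grow from 21698 to 43251 CPM and the C-form from 1469 to 7447 CPM.

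Of the smaller classes of miR-21a-5p, mixed 3' additions made up 1.01% and 1.14% at 0 h and 1.40% and 1.5% at 12 h, with both libraries above the 0 h pair from 8 h on. Their upward trend was called (0.0328 ± 0.00707 log2 units per hour, adjusted p = 0.00218, edgeR quasi-likelihood test), among 41.5% of all mixed entries. Their 12 h difference of 0.43 ± 0.13 was not (adjusted p = 0.0705), and was called with the experiment as a block (adjusted p = 0.000121).

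Added A and U are the common tails that terminal nucleotidyl transferases give to miRNAs, and both were scarce on miR-21a-5p. The A-form made up 0.173% to 0.230% of reads (median 0.204%), and its 12 h difference was 0.04 ± 0.19 log2 units (adjusted p = 0.978, edgeR quasi-likelihood test). No trend was called for it (adjusted p = 0.997), against 25.2% of all A-form entries. Of the 124 miRNAs of at least 1000 mean reads, 101 had a higher mean A-form share, and 95 a higher U-form share. The U-form made up 0.117% and 0.102% at 0 h and 0.0929% and 0.0762% at 12 h, with 10 h and 12 h below the 0 h pair. Its 12 h difference of -0.38 ± 0.14 missed the threshold (adjusted p = 0.140) and passed it with the experiment as a block (adjusted p = 0.000797). Trends were called for 16.5% of all U-form entries. The G-form made up 0.0189% to 0.0289%, with a 12 h difference of 0.14 ± 0.13 (adjusted p = 0.671) and no called trend (adjusted p = 0.664), against 6.67% of all G-form entries.

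Extensions at the 5' end shift the seed and were rare. Templated 5' extensions of miR-21a-5p made up 0.288% and 0.410% of reads at 0 h and 0.384% and 0.514% at 12 h, 1.34 and 1.25 times as much within each experiment. Replicate 2 was above replicate 1 at every time, and the groups of 0 h and 12 h overlapped. The 12 h difference of 0.36 ± 0.26 log2 units missed the threshold (adjusted p = 0.486, edgeR quasi-likelihood test) and passed it with the experiment as a block (adjusted p = 0.00105). Its trend of 0.0329 per hour was not called either (adjusted p = 0.0617, and 6.97e-07 with the block), against 31.1% of all such entries. The 5' C-form made up 0.0112% to 0.0233%, and its trend of -0.0437 per hour was not called (adjusted p = 0.0939, and 0.00381 with the block), and 0 of 12 such entries of all miRNAs were called without it. The other 5' entries held 11 to 44 reads each over all 16 libraries and were not tested.

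miR-21a-3p had another make-up and another time course. Trimmed reads were its main class, with a mean share of 78.9% over the 16 libraries, and 8 of the 124 miRNAs of at least 1000 mean reads had a higher one. Its reference form was at its highest in the early hours and back near its start by 8 h. In replicate 1 the reference share was 7.54% at 0 h, 15.7% at 1 h, 18.7% at 2 h, 15.2% at 4 h, 13.0% at 6 h, 9.52% at 8 h, 9.57% at 10 h and 9.66% at 12 h. In replicate 2 it was 9.85%, 17.2%, 15.1%, 17.7%, 12.3%, 10.5%, 9.88% and 9.85%.

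All 8 libraries of 1 h to 6 h were above both 0 h libraries in the miR-21a-3p reference share. It changed over the course (adjusted p = 0.00370, edgeR quasi-likelihood test), with neither its trend (adjusted p = 0.0953) nor its 12 h difference called (0.17 ± 0.14 log2 units, adjusted p = 0.567). Its downward trend was called without either 0 h library (adjusted p = 0.00546 without replicate 1 and 0.0366 without replicate 2), without both (4.49e-05, an alternative added after the data had been seen) and with DESeq2 (0.0496). The counts behind it went from 167 and 217 reads at 0 h to 428 and 429 at 1 h. For comparison, the reference share of miR-21a-5p went from 49.0% ± 0.704 to 48.0% ± 0.618 (SD, n = 2) over that first hour.

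Trimmed reads of miR-21a-3p moved the other way. They made up 84.2% and 82.2% at 0 h and 75.5% and 74.4% at 1 h. The 2 h libraries had 69.6% and 75.6% and the 4 h libraries 75.3% and 72.4%. At 6 h they made up 79.1% and 78.4%, and by 12 h they had returned to 82.4% and 84.0%. All 8 libraries of 1 h to 6 h were below the 0 h pair. The change over the course was called (adjusted p = 0.0368, edgeR quasi-likelihood test), but the adjusted p was 0.0575 to 0.0941 when any library of 0, 1, 4, 6, 8, 10 or 12 h was left out, and 0.363 with no filter on low counts.

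Templated 3' extensions of miR-21a-3p made up 6.23% and 6.17% at 0 h and 9.91% and 8.01% at 2 h. The 12 h shares were 6.78% and 4.85%. No change over the course was called (adjusted p = 0.191, edgeR quasi-likelihood test). Mixed additions made up 0.525% to 1.20% and did not pass the test either (adjusted p = 0.551). Over all 16 libraries miR-21a-3p had 124 A-form, 62 U-form, 38 C-form and 16 G-form reads and 4 templated 5' extensions, too few to test. In 1 library, 3 reads, the most that a count of 0 allows, come to 0.0834% to 0.288% of the arm's reads.

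**Figure D5:**
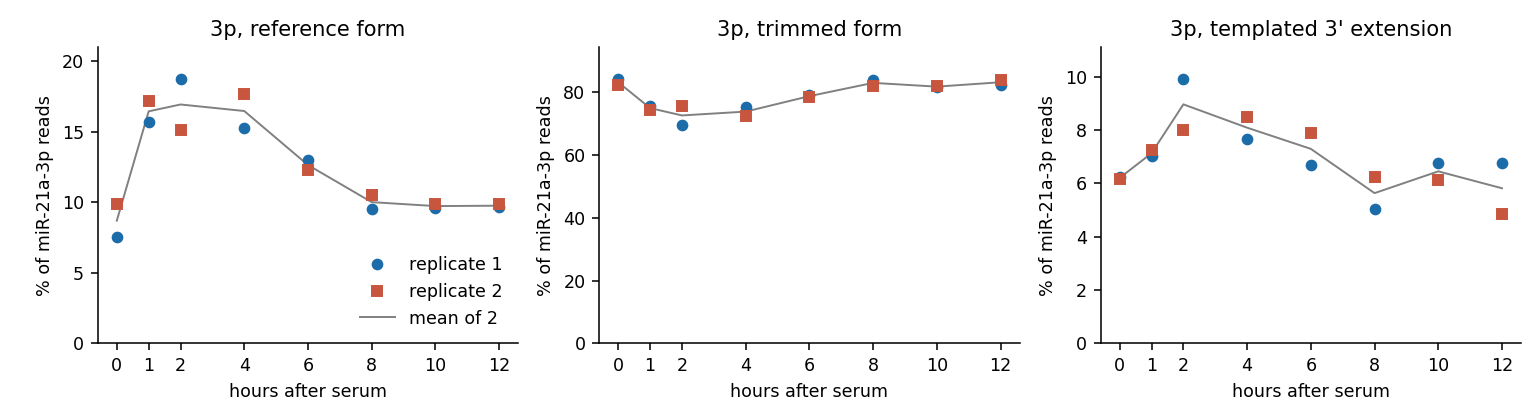
Share of miR-21a-3p reads (percent) in the reference, trimmed and templated 3' classes against hours after serum, with points for single libraries and a line through the means of 2 libraries. The reference form stands at 12.3% to 18.7% from 1 h to 6 h against 7.54% and 9.85% at 0 h, and the trimmed form is at its lowest over the same hours.

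Counting error was small beside the share changes of the templated, reference, trimmed and 3' C-forms of miR-21a-5p. The widest 95% Wilson interval of a class share in 1 library reached 0.166 percentage points to either side for miR-21a-5p and 2.39 for miR-21a-3p. It was not small for rare classes of miR-21a-5p. The G-form had up to 0.00523 points, with mean shares of 0.0235% at 0 h and 0.0258% at 12 h. The 5' C-form had up to 0.00476 points, with 0.0191% and 0.0150%. Without molecular identifiers in the reads, such intervals describe counting error and nothing else. The p-values for any change and for 12 h rest on the spread between 2 experiments at each time, and those for the trend on the scatter of the libraries about a line, which includes any departure from it.

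miRNAs whose levels varied together with those of an arm were looked for among 139 miRNAs of at least 100 CPM on average. The measure was the Pearson correlation (r) of log2 CPM over the 16 libraries. For miR-21a-5p the highest were miR-30a-5p (r = 0.862), miR-143-3p (0.840) and miR-192-5p (0.768). For miR-21a-3p they were miR-101b-3p (0.747), miR-3074-2-3p (0.698) and miR-148a-3p (0.668). The arms of miR-21a correlated with each other at 0.429. Libraries share a run and a scaling factor across all miRNAs, and r includes the scatter between experiments at each time. These values are descriptions and do not show a shared time course.

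Other miRNAs that growth factors, AP-1, SRF, CREB or Myc are described to induce were set beside miR-21a-5p. Of 35 such arms with counts, from 19 hairpins, 33 were tested at 12 h against 0 h, and 11 rose, 0 fell and 22 were not called. Of all 449 miRNAs tested, 14.3% were called (8.24% higher and 6.01% lower). The median log2 difference was 0.48 over the list and 0.00 over all. Since the list was chosen with results of these data known, its count and median are descriptions and no independent evidence of a direction. The count was 7 without 0 h replicate 2.

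The most abundant of the list were miR-22-3p, miR-92a-3p, miR-31-5p and miR-221-3p. Because the list was chosen with results of these data known, their fitted 12 h differences are given without a test. That of miR-22-3p was 0.34 ± 0.078 log2 units (SE). miR-92a-3p of the Myc-driven miR-17-92 cluster had 0.48 ± 0.13 and miR-31-5p had 0.38 ± 0.098. miR-221-3p, known to repress Cdkn1b (p27), had 0.43 ± 0.22 and was among those not called. The 3 called members with the largest fitted 12 h difference were picked by that size, so their values are given without a test. Between 0 h and 12 h miR-155-5p went from 79.7 ± 5.04 to 282 ± 43.9 CPM (SD, n = 2) and miR-92a-1-5p from 76.9 ± 20.9 to 399 ± 2.42 CPM. miR-155-3p stood at 0.205 ± 0.0925 CPM at 0 h, under the 0.385 to 0.513 CPM that a count of 0 allows, and at 5.38 ± 0.625 CPM at 12 h.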

How the data were processed

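The authors deposited raw read counts per miRNA and end class, 1 column per library, per the file headers. Per the labels' protocols, the TruSeq small RNA kit was used on 1000 ng of total RNA (miRNeasy). The submitters' processing notes name CASAVA 1.8.0. Not given in the sources used here were the aligner, miRBase release, build and handling of reads that match several miRNAs. Of 6511 entries, 1 identical duplicate was dropped. All 966 non-templated entries equalled the sum of their forms, so the forms were not added to them again.

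CPM used TMM scaling (factors 0.935 to 1.07). The count of each class was tested with edgeR 4.0.16 (limma 3.58.1, R 4.3.3), with the log of the arm's total as offset, all 16 libraries in 1 fit, for any change, a linear trend and 12 h against 0 h. miRNA levels were fitted on 449 miRNAs kept by filterByExpr (minimum count 10). An SE is the log2 value over the square root of F. Scripts were tested on simulated data. The alternatives were DESeq2 1.42.0, limma on log ratios, other filters and denominators, unscaled totals, the replicate block, fewer libraries and each library left out.

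The replicate number marks the experiment and the run. Deviations of libraries with the same number from their group means correlated at 0.208 to 0.80 (median 0.501) in all 28 pairs of times, over 266 miRNAs of at least 10 CPM, so the numbers pair the samples. The rule named both arms and all their class entries, seed mates, and the 3 miRNAs most like each arm. It also named the 4 most abundant and 3 most changed of the growth-factor list, and 4 abundant miRNAs for end forms. From outside the rule, let-7i-5p, miR-125b-5p, miR-28a-3p and miR-101a-3p were added after their values were seen. The members and lists were chosen with earlier results of these data known. Sequences and coordinates are from RefSeq (GRCm38.p6), the exon and its untranslated part from the GENCODE annotation of that build.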

Additional observations from a re-analysis of the deposited data

How the results depend on the processing

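The trend of miR-21a class shares called 5 of 14 entries, and 8 with the replicate block, with DESeq2 or with no 0 h libraries. It called 5 to 9 when 1 library was left out, 9 without 0 h replicate 2. At 12 h, 4 entries were called, 7 with the replicate block, 2 with only the libraries of 0 h and 12 h, and 4 in every fit with 1 library left out. The count for any change (6) ranged from 4 to 9. Beyond the calls given above, the block also called any change of the mixed form (adjusted p = 0.000565), the U-form (0.000532) and the templated 5' form (0.00320), and the trends of the last 2 (0.0190 and 6.97e-07); it ended no call. The 12 h level of miR-21a-5p (log2 0.59) was 0.43 on unscaled totals, 0.16 for reference-form reads, and 0.49 to 0.74 with 1 library left out; that of miR-21a-3p (0.04) ranged from -0.12 to 0.25. miR-21a-3p per 1000 miR-21a reads (-1.60) was 0.0540 for reference-form reads, which start from a lower baseline, and -1.96 to -1.24 with 1 library left out. The growth-factor list (11) ranged from 7 to 15 called, 7 to 9 with 1 library left out. Over reference-form reads as denominator, the any-change test of the trimmed miR-21a-5p form was not called (adjusted p = 0.232). Some miR-21a-5p trends were called only over it or other alternatives (edgeR quasi-likelihood test). Over it these were the A-form (0.0412 per hour, adjusted p = 0.00838), the G-form (0.0485, 0.00296) and the templated 5' form (0.0746, 0.00124). The reference share itself had a slope of -0.0411 per hour, so slopes over that denominator include its fall. With the arm total as denominator they were 9.27e-05 (A-form), 0.00801 (G-form) and 0.0329 (templated 5' form), none of them called. Over all reads of the arm, the templated 5' trend was 0.0342 in the run of replicate 1 and 0.0318 in that of replicate 2.

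Each sign that turned belonged to a trend or 12 h difference that was not called. Over reference-form reads, trends per hour were 0.0164 (miR-21a-3p mixed), 0.0110 (miR-21a-3p templated) and 0.0128 (miR-21a-5p U-form), and 12 h differences -0.194 (miR-21a-3p trimmed), 0.083 (U-form) and 0.12 (5' C-form). The trimmed miR-21a-3p difference was -0.0010 with limma. In the run of replicate 2 the A-form and G-form trends were -0.0109 and -0.0055. The mixed miR-21a-3p trend was 0.0131 without the 0 h libraries and 0.000439 without those of 12 h, where the A-form trend was -0.0053. With 1 library left out, trends ran from -0.00384 to 0.00496 (A-form) and -0.000448 to 0.0121 (G-form). The 12 h differences then ran from -0.35 to 0.13 (miR-21a-3p templated), -0.013 to 0.37 (its reference form), -0.017 to 0.018 (its trimmed form), -0.13 to 0.24 (A-form) and -0.048 to 0.30 (G-form). The causes were not tested. Depth limits miR-21a-3p most.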
